A study of Mus musculus with 24 samples.

Results

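The 33 genes described here are genes of the myeloid cells of blood and spleen (monocytes, macrophages, neutrophils and their precursors) and of dendritic cells, measured in libraries made from CD8 T cells. They were found by symbol in the deposited tables, where all 33 are among 48526 genes. By their best known role, 16 are monocyte or macrophage genes, 2 encode signalling adaptors shared by many innate cells, 3 are dendritic cell genes, 10 are neutrophil or granulocyte precursor genes and 2 encode transcription factors. Itgam has a second Ensembl ID with 1 count in 1 of the 24 libraries, which was kept apart, so the symbols cover 34 rows.

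The libraries come from OT-1 mice, a transgenic strain in which CD8 T cells carry the same receptor, specific for an ovalbumin peptide. Spleen cells were cultured with that peptide at 2 µg/mL, and T cells were then purified by negative selection, in which the other cells are tagged and removed. There were 6 groups of 4 libraries: peptide alone (OVA), peptide after a Toll-like receptor 2 agonist (TLR2) and peptide after a Toll-like receptor 7 agonist (TLR7), each at 24 h and at 72 h. Agonists were added 1 h before the peptide, and every group, the OVA controls included, had OT-1 cells and peptide. The agonists listed are Pam3CSK4 at 300 ng/mL for TLR2, and gardiquimod at 3 µg/mL and R848 at 10 µg/mL for TLR7. The labels do not say which of the last 2 was used in the sequenced groups, nor whether replicates came from separate mice, so the p-values cover the spread among these samples only, which may be technical. Messenger RNA was sequenced, and values are CPM (counts scaled to a common library size, per 1 M counts, with TMM scaling between libraries).

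Myeloid cells take up and kill microbes with lysozyme, an oxidase that makes superoxide, pore-forming proteins and granule proteins, and they sense their surroundings through receptors that signal with the adaptors encoded by Fcer1g and Tyrobp. Macrophages and monocytes depend on the receptor Csf1r, dendritic cells on Flt3 and neutrophils on Csf3r, and the factors encoded by Spi1 (PU.1) and Cebpa (C/EBP alpha) set up these lineages. Macrophages and dendritic cells present antigen to T cells in the spleen, and they carry Toll-like receptors themselves. Several of the genes, among them Ctss, Cybb, Mpeg1 and Itgax, are also known from lymphocytes.

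The labelled cell type matched its defining markers in all 24 libraries: Cd8a lay at 457 to 904 CPM (median 652) and Cd3e at 107 to 321 CPM (median 179), whereas Cd4 stayed at or below 2.00 CPM. The 24 totals lay between 10.5 and 27.1 M counts, with 5 shallow libraries of 11.7 M or less (OVA 24 h replicate 4, TLR2 24 h replicate 4, TLR7 24 h replicate 2 and TLR7 72 h replicates 1 and 2) and at least 21.5 M in each other library. The limit set by 3 counts ran from 0.111 CPM (deepest library) to 0.286 CPM (shallowest), for counting error only. On the first principal component of all genes (60.2% of the variance) 8 libraries lay between the other 24 h and 72 h libraries. Called intermediate libraries below, they are replicates 1, 3 and 4 of TLR2 72 h, replicate 4 of OVA 72 h, replicates 3 and 4 of TLR7 24 h and replicates 1 and 3 of OVA 24 h. Since they fall unevenly on the groups, and TLR2 72 h keeps only replicate 2 without them, results are also given without them.

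Most of the 33 genes were sparse. Only 11 had a count in every library, 22 reached a mean of at least 1 CPM in any group, and 24 passed the filter on low counts and were tested. The 9 that did not pass were C1qa, C1qb, C1qc, Csf3r, Elane, Mmp9, Mpo, Ms4a7 and Retnlg. Ms4a7, a macrophage membrane protein gene, had at most 6 counts in any library, the lowest such maximum of the 33 genes, and lay between 0 and 0.273 CPM. Per kb of exon, Ctss had the highest median CPM over the 24 libraries (34.0), followed by Mpeg1 (3.57), Cd68 (3.18), Cybb (2.08), Lyz2 (2.01), Fcer1g (1.93) and S100a9 (1.91). The median of Lyz2 and S100a9 hides a wide spread over libraries, described next, and Lilr4b has no length in the annotation used here.

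**Figure D1:**
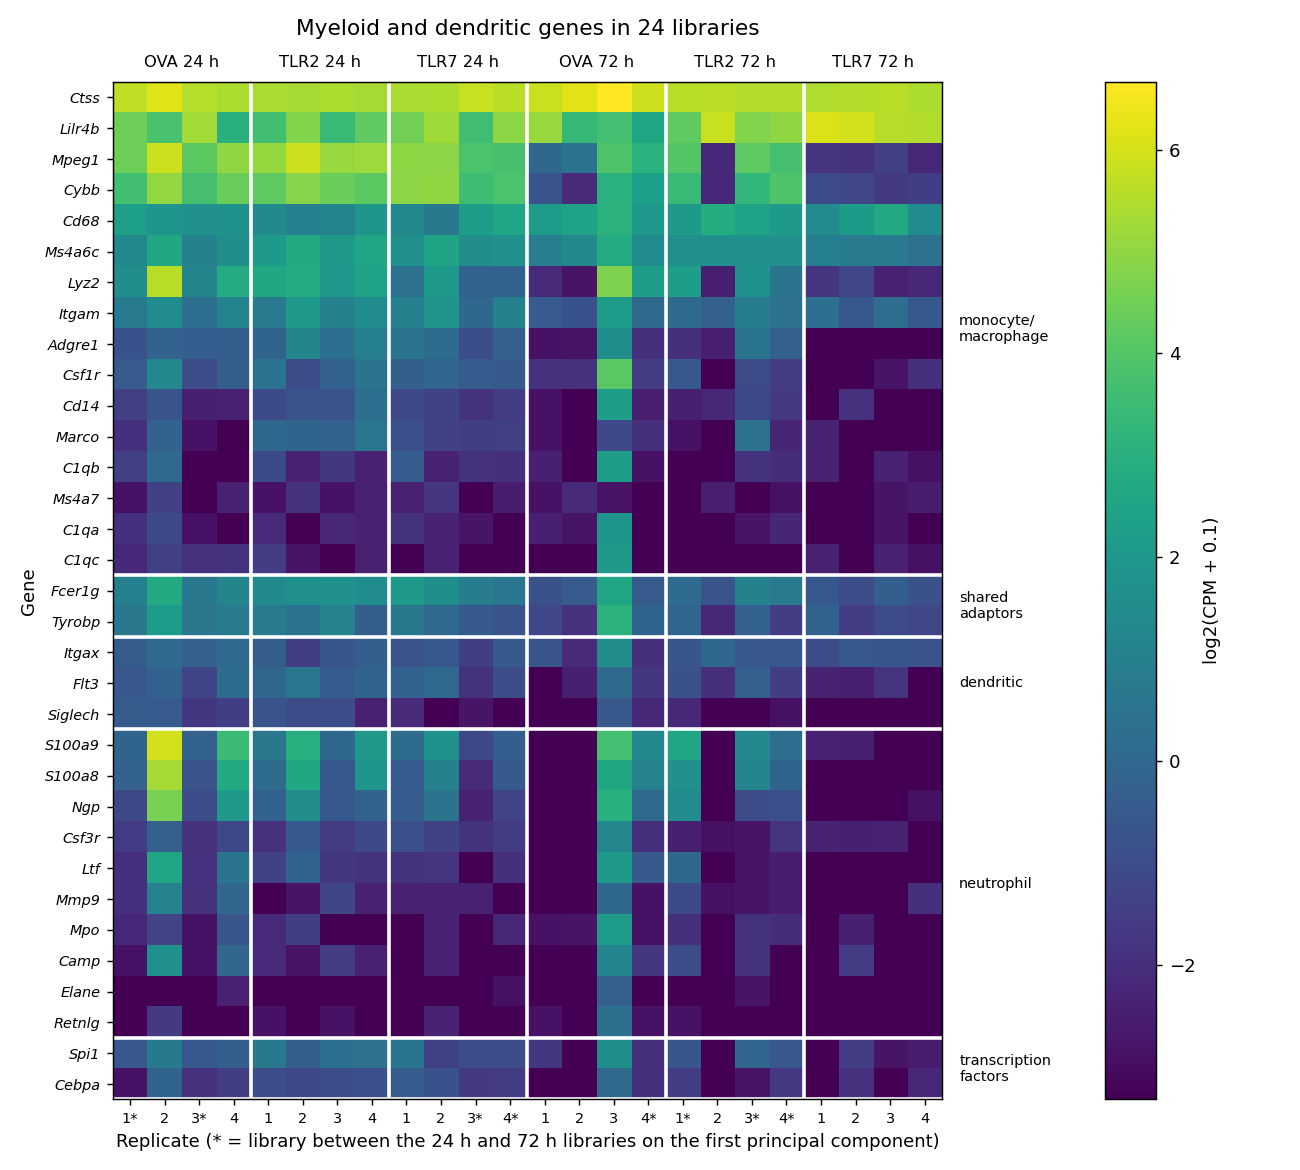
Level of the 33 genes (rows, grouped by role and ordered by median within a role) in the 24 libraries (columns, by group and replicate), as log2(CPM + 0.1). Asterisks mark the 8 intermediate libraries. OVA 24 h replicate 2 and OVA 72 h replicate 3 stand out as bright columns, and Ctss, Lilr4b, Cd68 and Ms4a6c keep a signal in every column.

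For many of the genes, 1 or 2 libraries held most of the signal. The highest of the 24 libraries was OVA 72 h replicate 3 for 18 genes and OVA 24 h replicate 2 for 10, which leaves 5 (Siglech, Flt3, Mpeg1, Marco and Lilr4b). These 2 libraries together held at least 50% of the CPM, summed over the 24 libraries, of 15 genes. A single library held at least 50% of 9 genes: OVA 72 h replicate 3 for Elane (81.1%), C1qc (74.3%), C1qa (70.6%), Retnlg (69.2%), Mpo (65.8%), Csf1r (57.4%) and C1qb (56.1%), and OVA 24 h replicate 2 for S100a9 (52.8%) and S100a8 (51.7%). Both libraries are deep, and neither is intermediate.

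**Figure D2:**
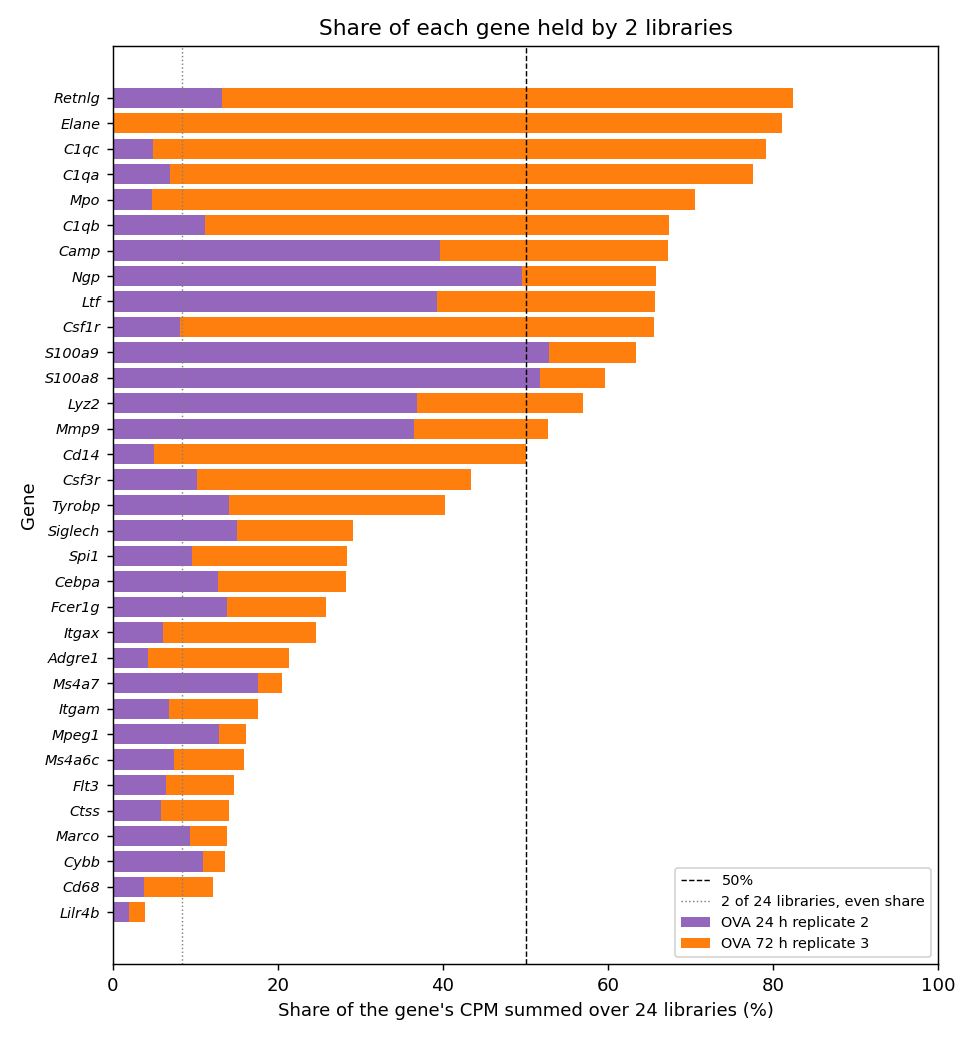
Share of each gene's CPM, summed over the 24 libraries, that came from OVA 24 h replicate 2 (purple) and OVA 72 h replicate 3 (orange). Dashed line, 50%; dotted line, the share that 2 of 24 equal libraries would hold. The share ran from 3.88% for Lilr4b to 82.4% for Retnlg.

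Neutrophil genes were uneven. S100a8 and S100a9 encode the pair of calcium-binding proteins (calprotectin) that fill the neutrophil cytosol. S100a9 stood at 0.826, 63.8, 0.784 and 11.1 CPM in OVA 24 h replicates 1 to 4, and at 0, 0, 12.8 and 2.35 CPM in OVA 72 h replicates 1 to 4. The second replicate at 24 h thus held 1404 counts and the first 2 replicates at 72 h held 0. S100a8 followed the same libraries, with 39.9 CPM (878 counts) in OVA 24 h replicate 2, 6.72 CPM in replicate 4, at most 0.787 CPM in the other 2, and 0, 0, 6.10 and 2.03 CPM at 72 h. The genes lie near each other on chromosome 3 (GRCm38, S100a8 at 90668978 to 90670035 on the plus strand, ENSMUSG00000056054, and S100a9 at 90692632 to 90695721 on the minus strand, ENSMUSG00000056071).

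Because these 2 genes were high in the same libraries, their promoters are shown, from 250 bases before to 50 after the RefSeq start (GRCm38.p6), at chr3:90668821-90669120 on the plus strand and chr3:90695672-90695971 on the minus strand, written 5′ to 3′. Capitals mark a match, on either strand, to GAGGAAGT (a PU.1 motif) in S100a8 and to TTGCNNAA (a C/EBP motif) in S100a9:
S100a8: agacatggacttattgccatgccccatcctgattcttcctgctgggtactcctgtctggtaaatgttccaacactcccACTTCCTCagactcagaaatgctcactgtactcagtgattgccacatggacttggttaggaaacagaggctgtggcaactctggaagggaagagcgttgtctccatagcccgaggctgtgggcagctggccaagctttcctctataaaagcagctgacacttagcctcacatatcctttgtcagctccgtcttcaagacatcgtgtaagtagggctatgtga
S100a9: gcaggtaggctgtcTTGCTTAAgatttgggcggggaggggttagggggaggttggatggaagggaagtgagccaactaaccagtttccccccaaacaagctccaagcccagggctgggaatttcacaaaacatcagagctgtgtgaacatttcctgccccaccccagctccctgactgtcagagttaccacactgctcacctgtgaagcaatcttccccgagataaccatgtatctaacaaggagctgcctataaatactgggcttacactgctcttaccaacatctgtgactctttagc
The S100a8 match starts 172 bases before the start and the S100a9 match 236 bases before it. Of 32851 promoter windows of this length, 3.2% held GAGGAAGT and 10.8% held TTGCNNAA on either strand. Among the genes described here, 26 have a window in the table used; GAGGAAGT was found in 5 (C1qc, Ctss, Elane, Mpo and S100a8) and TTGCNNAA in 6 (Cd68, Ltf, Ngp, Retnlg, S100a9 and Siglech). A match describes the letters only, and each of these 2 windows holds 1 of the 2 motifs.

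Granule protein genes followed the calprotectin genes. Ngp, which encodes neutrophilic granule protein, reached 24.4 CPM (537 counts) in OVA 24 h replicate 2 and 7.96 CPM in OVA 72 h replicate 3, against at most 3.98 CPM in any other library. Ltf (lactoferrin) reached 5.95 and 4.01 CPM and Camp (the antimicrobial peptide CRAMP) 3.14 and 2.18 CPM in these 2 libraries, and their next highest values were 1.33 and 0.884 CPM in OVA 24 h replicate 4. The 3 genes were at 0 counts in 6, 8 and 10 of the 24 libraries. Mmp9, a gelatinase of neutrophil granules, was at 2.05 CPM in OVA 24 h replicate 2, 0.910 CPM in OVA 72 h replicate 3 and at most 0.884 CPM elsewhere.

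Another 4 neutrophil genes were highest in OVA 72 h replicate 3. Mpo (myeloperoxidase, made at the promyelocyte stage) had 97 counts (4.41 CPM) there, 7 counts in OVA 24 h replicate 2 and at most 6 in the other 22 libraries. Elane (neutrophil elastase, made at the same stage) had 16 counts there, 1 count in each of 3 other libraries and 0 in 20. Retnlg, a resistin-like gene of mature neutrophils, had 26 counts there, 5 in OVA 24 h replicate 2 and at most 1 elsewhere. Csf3r, the receptor for the neutrophil growth factor G-CSF, had 52 counts (2.37 CPM) there and at most 16 elsewhere. The ratio of Mpo to S100a9 counts therefore differed between the 2 libraries, with 97 against 281 in OVA 72 h replicate 3 and 7 against 1404 in OVA 24 h replicate 2.

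Summed over the 10 neutrophil genes, OVA 24 h replicates 1 to 4 stood at 2.68, 140.5, 2.27 and 25.9 CPM, and OVA 72 h replicates 1 to 4 at 0.0842, 0.0422, 42.6 and 6.46 CPM. TLR2 libraries ran from 3.14 to 18.8 CPM at 24 h and from 0.0766 to 13.6 CPM at 72 h. TLR7 libraries ran from 0.822 to 7.53 CPM at 24 h and from 0.0897 to 0.496 CPM at 72 h. The TLR7 72 h libraries were thus all low, with 4 of the 10 genes at 0 in every one, but OVA 72 h replicates 1 and 2 and TLR2 72 h replicate 2 were as low. In bulk RNA, fewer cells of a type and less RNA per cell cannot be told apart.

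Some lists of genes of other cells were also high in these 2 libraries. OVA 24 h replicate 2 and OVA 72 h replicate 3 had the highest sums of their groups for 30 other monocyte and macrophage genes (84.6 CPM against 42.0 to 59.9, and 165.9 against 50.2 to 76.6), for 20 other neutrophil genes (34.9 CPM against 7.59 to 18.2, and 20.3 against 4.22 to 11.3), for 7 erythroid genes (18.3 CPM against 1.14 to 4.15, and 24.8 against 0.211 to 1.24) and for 6 NK cell genes (9.36 CPM against 4.13 to 6.44, and 9.47 against 1.77 to 2.47). Their sums of 12 CD8 T cell genes, 3882 and 5292 CPM, lay within the range of the other libraries of their groups (3587 to 4232 and 4554 to 5832 CPM). In these 2 libraries the sums of 12 B cell genes were also the highest of their groups, at 271.2 and 50.1 CPM. The rest of the groups held 108.7 to 207.5 and 6.93 to 49.7 CPM. Other lists were not highest in both: 8 mast cell and basophil genes stood at 20.9 and 28.5 CPM there. The rest of the 2 groups reached 45.4 and 50.8 CPM. The sum of 8 platelet genes was 4.41 CPM in OVA 24 h replicate 2 (up to 7.14 in its group). In OVA 72 h replicate 3 it was the highest of its group (10.2 CPM against up to 9.13). The sum of 20 other dendritic genes was the highest of its group in OVA 24 h replicate 2 (411.3 CPM against up to 347.0). In OVA 72 h replicate 3 it was 248.4 CPM (up to 282.1). The mast cell and other dendritic sums rest in large part on 1 gene each. Without Kit the group mean of the mast cell and basophil sum went from 22.6 to 8.42 CPM in OVA 24 h. In OVA 72 h it went from 31.6 to 4.16 CPM. Without Irf8 the mean of the other dendritic sum went from 357.8 to 93.5 CPM and from 247.3 to 112.3 CPM. How the rest of either list stood in the 2 libraries is not given here. The part of the listed cells in the values above was not tested.

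**Figure D3:**
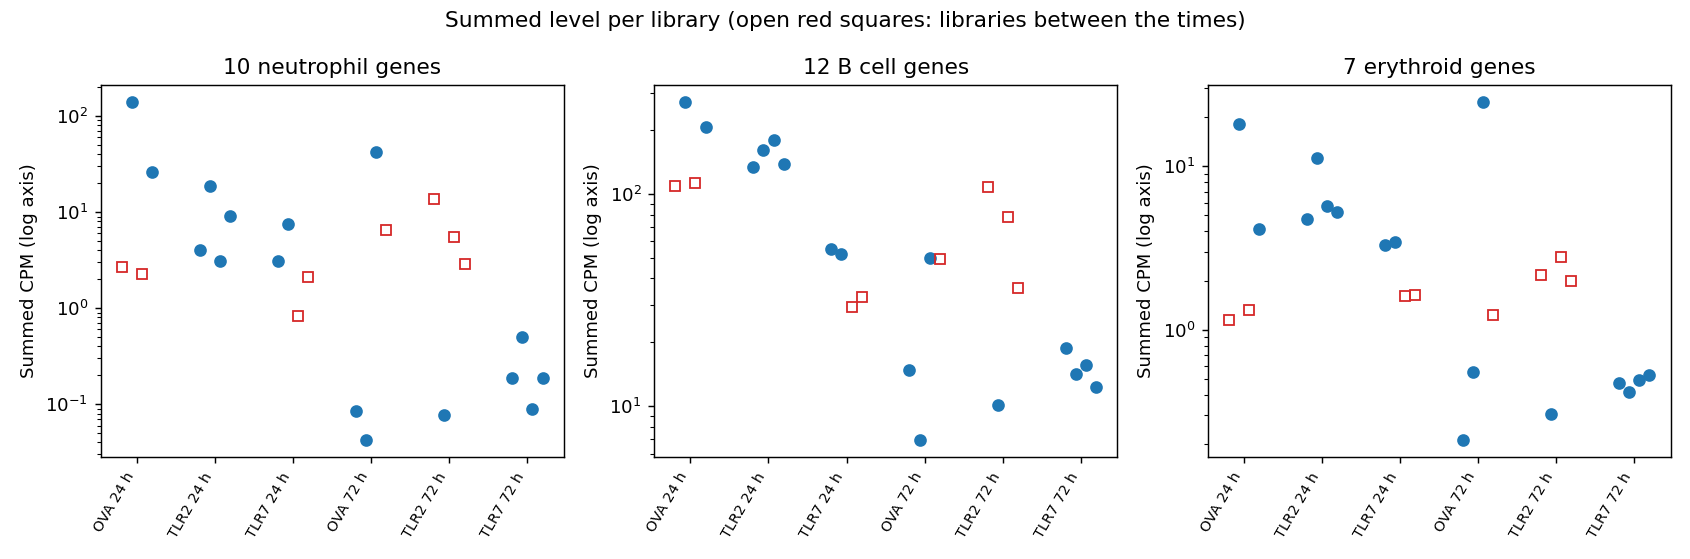
Summed CPM per library (log axis) of the 10 neutrophil genes, of 12 B cell genes and of 7 erythroid genes, by group; each point is 1 library and open red squares are intermediate libraries. The neutrophil sums of OVA 24 h spread from 2.27 to 140.5 CPM, while those of TLR7 72 h reach at most 0.496 CPM.

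Macrophage genes were high together with the neutrophil genes in OVA 72 h replicate 3. C1qa, C1qb and C1qc, the 3 chains of complement C1q that resident macrophages secrete, had 81, 105 and 91 counts there (3.69, 4.78 and 4.14 CPM). In the other 23 libraries they had at most 8, 21 and 6 counts, values reached in OVA 24 h replicate 2 and, for C1qc, also in TLR2 24 h replicate 1. Csf1r, the receptor for macrophage colony-stimulating factor, stood at 17.3 CPM there against 0.168, 0.169 and 0.239 CPM in the other OVA 72 h libraries, and Cd14, a co-receptor for lipopolysaccharide, at 4.55 CPM against 0 to 0.0797 CPM. For both genes the mean of the OVA 72 h group (4.47 and 1.17 CPM) thus lies far above 3 of its 4 libraries.

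Lyz2, which encodes the lysozyme of macrophages and neutrophils, was shared between the libraries in the same way. It stood at 3.07, 48.4, 2.23 and 6.98 CPM in OVA 24 h and at 0.126, 0.0422, 26.4 and 4.58 CPM in OVA 72 h. It lay at 3.87 to 6.91 CPM in all TLR2 24 h libraries, at 4.78, 0.0765, 3.42 and 1.32 CPM in TLR2 72 h, at 1.23, 4.01, 0.778 and 0.762 CPM in TLR7 24 h and at 0.0897 to 0.331 CPM in TLR7 72 h. Lyz2 passed the threshold in 0 of the 9 comparisons of 2 groups with edgeR; for TLR7 against OVA at 72 h the log2 fold change was -5.53 (SE 1.59, adjusted p = 0.0549), and DESeq2, which called 12 of the genes and 961 in all there, gave -5.38 (adjusted p = 0.00207).

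A few genes had a signal in every library, also where the others were near 0. Ctss (cathepsin S, a protease that trims the invariant chain of class II molecules) lay between 39.5 and 101.2 CPM, Cd68 (a lysosomal membrane protein) between 1.53 and 8.37 CPM and Ms4a6c (a membrane protein of the MS4A family) between 1.21 and 7.05 CPM. Lilr4b (an immunoglobulin-like receptor of the gp49 family) lay between 5.98 and 69.0 CPM. In the 4 TLR7 72 h libraries, in which Adgre1 and S100a8 had 0 counts and Csf1r at most 0.152 CPM, Ctss stood at 44.05, 45.5, 48.3 and 43.7 CPM, Cd68 at 2.75, 4.22, 6.37 and 2.77 CPM and Lilr4b at 69.0, 63.5, 48.7 and 46.0 CPM. These 3 genes thus kept a signal in libraries where Adgre1 and S100a8 had none, although Ctss and Cd68, like Csf1r, were highest of all libraries in OVA 72 h replicate 3. Which cells in the libraries they came from was not tested.

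The first set of comparisons asks how the genes changed from 24 h to 72 h of activation with each agent. With the TLR7 agonist, 6 of the 24 tested genes fell and 0 rose, beside 24.2% of all 14560 genes tested that fell. Over all genes, 3521 fell among 6288 called in either direction. The 6 are Mpeg1, Cybb, Adgre1, Flt3, Fcer1g and Ms4a6c. The median log2 fold change of the 24 genes was -2.82, or -2.5 with the 4 genes that had 0 counts at 72 h set to their bounds, against -0.01 over all genes. Among the 24, 9 had 3 counts or fewer over TLR7 72 h and passed the filter on low counts only through other groups. The median is therefore in part set by which genes were kept, and is a description only. DESeq2 called 14 of the 24 among 6849 genes in all.

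Mpeg1 (ENSMUSG00000046805, chromosome 19, 12460779 to 12465283, GRCm38) encodes perforin-2, a pore-forming protein that macrophages use against engulfed bacteria. It stood at 31.3, 30.3, 14.2 and 13.4 CPM in TLR7 24 h and at 0.190, 0.165, 0.269 and 0.114 CPM in TLR7 72 h, where it had 2, 2, 6 and 3 counts. The groups do not overlap, and the 2 lower libraries at 24 h are the intermediate ones. The log2 fold change was -6.88 (SE 1.14, edgeR adjusted p = 0.000623). It stayed past the threshold without any 1 of the 8 libraries, and without the intermediate libraries it was -7.34 (adjusted p = 8.71e-06).

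Cybb (ENSMUSG00000015340, X chromosome, 9435252 to 9487771, GRCm38) encodes gp91phox, the catalytic subunit of the phagocyte NADPH oxidase, and had the same course. It stood at 30.6, 32.1, 11.8 and 14.02 CPM in TLR7 24 h and at 0.380, 0.331, 0.224 and 0.265 CPM in TLR7 72 h. Again the groups do not overlap and the intermediate libraries lie lowest at 24 h. The log2 fold change was -6.24 (SE 1.12, edgeR adjusted p = 0.000832), and it kept its call without any 1 of the 8 libraries. Without the 5 shallow libraries, which leaves 2 TLR7 72 h libraries, the values for Mpeg1 and Cybb were -6.68 and -6.23 with an adjusted p of 0.0775 for both, so that the calls ended while the fold changes stayed close. In that fit only 5 genes of the whole table passed, against 6288 with all libraries.

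Since Mpeg1 and Cybb moved together across the libraries, their promoter windows are shown too, at chr19:12460520-12460819 on the plus strand and chrX:9469275-9469574 on the minus strand, from RefSeq on GRCm38.p6 and 5′ to 3′. The Cybb window lies inside the gene span given above from GENCODE M21, whose outermost start on the minus strand is 9487771. The 2 annotations thus differ on where Cybb starts. Neither holds a match to GAGGAAGT or TTGCNNAA, so both are in lower case, which says only that these letters are not in these windows:
Mpeg1: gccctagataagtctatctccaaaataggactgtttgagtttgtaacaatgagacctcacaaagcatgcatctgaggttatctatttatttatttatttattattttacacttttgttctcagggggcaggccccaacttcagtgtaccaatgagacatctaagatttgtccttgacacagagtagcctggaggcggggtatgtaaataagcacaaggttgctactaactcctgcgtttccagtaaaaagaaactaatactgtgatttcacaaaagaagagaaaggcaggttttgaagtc
Cybb: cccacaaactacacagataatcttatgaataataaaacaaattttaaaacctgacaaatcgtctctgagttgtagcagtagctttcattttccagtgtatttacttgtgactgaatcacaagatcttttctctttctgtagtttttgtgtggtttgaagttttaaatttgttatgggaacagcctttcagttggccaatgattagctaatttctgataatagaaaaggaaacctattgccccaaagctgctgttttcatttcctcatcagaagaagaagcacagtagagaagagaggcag

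Adgre1 (ENSMUSG00000004730, chromosome 17, 57358691 to 57483527) encodes F4/80, a surface protein that defines mouse macrophages. It had 30, 11, 10 and 19 counts in TLR7 24 h (0.432 to 1.32 CPM) and 0 counts in all 4 TLR7 72 h libraries. The groups do not overlap. It was at least 19.8-fold lower at 72 h, against a floor of 3 counts over the group (edgeR adjusted p = 0.00758), and kept its call without any 1 of the 8 libraries. Without the shallow libraries, where 5 genes of the whole table passed, the adjusted p was 0.11.

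Fcer1g, Ms4a6c and Flt3 fell less. Fcer1g (ENSMUSG00000058715), the gamma chain through which Fc receptors signal, went from 4.09, 3.05, 1.73 and 1.41 CPM to 0.570, 0.413, 0.718 and 0.455 CPM, and its log2 fold change was -2.22 (SE 0.72; adjusted p = 0.0187 with edgeR). Without TLR7 24 h replicate 1 it was -1.89 (adjusted p = 0.0659). Ms4a6c (ENSMUSG00000079419) went from 2.98 to 5.63 CPM at 24 h to 1.21 to 1.90 CPM at 72 h, and its log2 fold change was -1.21 (SE 0.385; adjusted p = 0.0173 with edgeR). Without TLR7 24 h replicate 2, its highest library, it was -0.96 (adjusted p = 0.073). For both genes no library at 72 h reached the lowest at 24 h.

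Flt3 (ENSMUSG00000042817), the growth factor receptor of dendritic cell precursors, had 18, 10, 4 and 11 counts at 24 h (0.791, 0.954, 0.173 and 0.419 CPM) and 1, 1, 4 and 0 counts at 72 h (0.0949, 0.0826, 0.179 and 0 CPM). Its groups overlap, since intermediate replicate 3 at 24 h was as low as replicate 3 at 72 h. The log2 fold change was -2.62 (SE 0.96, edgeR adjusted p = 0.0339). The call ended without TLR7 24 h replicate 1 or 2 or TLR7 72 h replicate 1, 2 or 4 (log2 fold changes -2.66 to -2.10, adjusted p 0.0585 to 0.0926). The call of Flt3 therefore depends on each of those 5 libraries.

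With OVA alone, 2 of the 24 genes fell from 24 h to 72 h and 0 rose, beside 10.4% of all genes tested that fell. In the whole table, 1519 genes fell among 2709 called in either direction. The 2 genes were again Mpeg1 and Cybb. Mpeg1 went from 22.2, 59.1, 17.7 and 32.4 CPM to 0.926, 1.31, 15.0 and 8.25 CPM, and its log2 fold change was -2.37 (SE 0.81; adjusted p = 0.0464 with edgeR). Cybb went from 12.4, 33.03, 13.1 and 21.5 CPM to 0.505, 0.127, 8.19 and 4.90 CPM, and its log2 fold change was -2.54 (SE 0.86; adjusted p = 0.0451 with edgeR). For both genes all OVA 72 h libraries lay below all OVA 24 h libraries, and replicate 3 and the intermediate replicate 4 were the higher pair at 72 h. The calls ended without OVA 24 h replicate 2 or 4 or OVA 72 h replicate 1, 2 or 3 (adjusted p 0.0884 to 0.145, log2 fold changes -3.42 to -2.04). Both calls also ended without a filter on low counts (adjusted p = 0.0578 for Mpeg1 and 0.057 for Cybb), with no scaling beyond library size (0.0537 and 0.0526) and without the shallow libraries (0.174 for both). Without the intermediate libraries both kept their calls, at -3.05 for Mpeg1 (adjusted p = 0.00251) and -3.28 for Cybb (adjusted p = 0.00374).

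With the TLR2 agonist, Cd68 rose and Siglech fell from 24 h to 72 h, beside 21.7% of all genes tested that rose and 17.4% that fell. Cd68 (ENSMUSG00000018774, chromosome 11, 69664213 to 69666153) went from 2.63, 1.89, 2.16 and 3.85 CPM to 4.09, 7.16, 5.24 and 4.17 CPM, with no overlap, and its log2 fold change was 0.99 (SE 0.37; adjusted p = 0.0397 with edgeR). The call ended without TLR2 24 h replicate 1, 2 or 3 or TLR2 72 h replicate 2 or 3 (log2 fold changes 0.79 to 1.00, adjusted p 0.0549 to 0.146). Siglech, a lectin of plasmacytoid dendritic cells, had 12, 9, 10 and 1 counts at 24 h and 3, 0, 0 and 1 counts at 72 h, and its log2 fold change was -3.03 (SE 1.09; adjusted p = 0.0368 with edgeR). The Siglech groups overlap, and its call ended without TLR2 24 h replicate 1, 2 or 3 or TLR2 72 h replicate 2, 3 or 4 (log2 fold changes -2.995 to -2.65, adjusted p 0.0647 to 0.116). Without a filter on low counts both calls ended too (adjusted p = 0.0624 for Cd68 and 0.0543 for Siglech).

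Mpeg1 and Cybb did not pass the threshold over time with TLR2 in all libraries, where the TLR2 72 h libraries split. Mpeg1 stood at 33.9, 59.4, 34.9 and 37.0 CPM in TLR2 24 h and at 15.9, 0.115, 18.1 and 13.02 CPM in TLR2 72 h (log2 fold change -1.81, SE 0.79, edgeR adjusted p = 0.0698). Cybb stood at 17.9, 28.6, 21.1 and 17.6 CPM and at 10.5, 0.115, 9.62 and 14.9 CPM (log2 fold change -1.28, SE 0.82, edgeR adjusted p = 0.205). Replicate 2, the only TLR2 72 h library that is not intermediate, had 3 counts of each gene. With that library as the only one at 72 h, which is then assumed to vary like the other groups, 5 genes passed the threshold among 6858 in all, with Mpeg1 (-8.38, adjusted p = 0.000846), Cybb (-7.43, adjusted p = 0.00341) and Lilr4b (1.73, adjusted p = 0.0157).

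Across all groups, the intermediate libraries took intermediate values of these 2 genes. Mpeg1 lay at 30.3 to 59.4 CPM in the other 24 h libraries, at 8.25 to 22.2 CPM in the 8 intermediate libraries and at 0.114 to 15.0 CPM in the other 72 h libraries, where only OVA 72 h replicate 3 exceeded 1.31 CPM. Cybb lay at 17.6 to 33.03, 4.90 to 14.9 and 0.115 to 8.19 CPM. B cell genes varied over the libraries too: the sum of 12 of them ran from 108.7 to 271.2 CPM in OVA 24 h, from 133.5 to 178.9 CPM in TLR2 24 h and from 29.4 to 55.0 CPM in TLR7 24 h. At 72 h it was 14.9, 6.93, 50.1 and 49.7 CPM in OVA, 107.2, 10.2, 77.5 and 36.2 CPM in TLR2 and 12.3 to 18.8 CPM in TLR7. The B cell receptor gene Cd79a was at 0 in 0 of the 24 libraries (0.211 to 30.9 CPM). The part of B cells in the levels of Mpeg1 and Cybb was not tested.

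**Figure D4:**
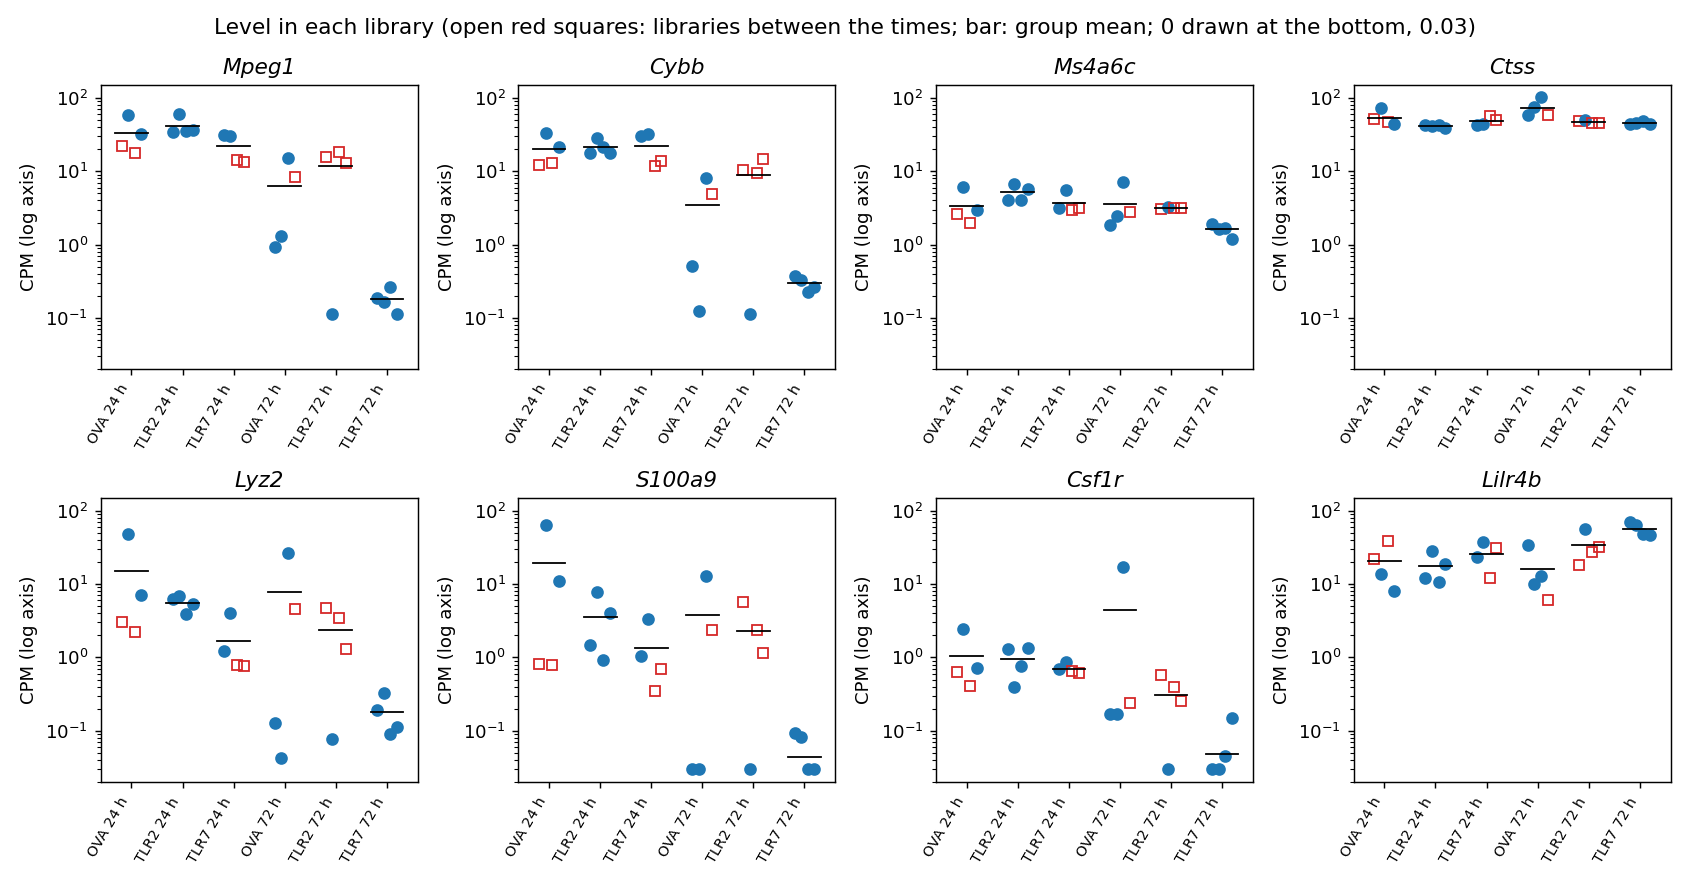
CPM (log axis) of 8 genes in each library by group. Open red squares are intermediate libraries and circles are the others. Bars are group means, and values of 0 are drawn at 0.03. Mpeg1 and Cybb fell from 24 h to 72 h with OVA and TLR7, Lyz2, S100a9 and Csf1r are led by single OVA libraries, and Ctss and Lilr4b stay high in TLR7 72 h.

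The second set of comparisons asks how the agonists changed the genes at 72 h. With TLR7 against OVA, 4 of the 24 genes fell (Mpeg1, Csf1r, Adgre1 and Ctss), beside 3.21% of all genes tested that fell, and Lilr4b rose, beside 0.412% of all genes that rose. The median log2 fold change of the 24 genes was -3.36, or -3.01 with the 4 genes at 0 in TLR7 set to their bounds, against -0.08 over all genes. This median too is in part set by the filter, which 9 of the genes passed only through groups other than TLR7 72 h. The OVA 72 h group holds replicate 3, described above, and 0 of the genes passed the threshold without it, although 278 genes of the whole table still did. Without the shallow libraries the count was 0, as it was over all genes. Without TLR7 72 h replicate 1, 2 or 4 the count was also 0, without TLR7 72 h replicate 3 it was 2, without OVA 72 h replicate 4 it was 3, and without OVA 72 h replicate 1, where more of the 33 genes pass the filter, 13 passed. Of all genes tested, 527 passed with all libraries, 92 to 133 without TLR7 72 h replicate 1, 2 or 4, and 1370 without OVA 72 h replicate 1.

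Mpeg1 stood at 0.926, 1.31, 15.0 and 8.25 CPM in OVA 72 h and at 0.114 to 0.269 CPM in TLR7 72 h, so all 4 TLR7 libraries lay below all OVA libraries. The log2 fold change was -5.08 (SE 1.13, edgeR adjusted p = 0.0153). Without OVA 72 h replicate 3 it was -4.22 (adjusted p = 0.0597), and without TLR7 72 h replicate 1, 2 or 4 it was -5.04 to -4.74 (adjusted p 0.0605 to 0.0883). Cybb overlapped, because OVA 72 h replicate 2 was at 0.127 CPM, and did not pass the threshold (log2 fold change -3.55, SE 1.09, edgeR adjusted p = 0.0693).

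The calls of Csf1r and Adgre1 depend on OVA 72 h replicate 3, among other libraries. Csf1r (ENSMUSG00000024621) had 4, 4, 380 and 6 counts in OVA 72 h and 0, 0, 1 and 4 counts in TLR7 72 h, and its log2 fold change was -5.97 (SE 1.47; adjusted p = 0.0266 with edgeR). Without OVA 72 h replicate 3 it was -1.47 (adjusted p = 0.517). Adgre1 had 1, 1, 67 and 4 counts in OVA 72 h and 0 in all TLR7 72 h libraries, at least 18.5-fold lower over the group (edgeR adjusted p = 0.0472), with an adjusted p of 0.271 without that replicate. The 2 calls also ended without any 1 of the 4 TLR7 72 h libraries (adjusted p 0.0588 to 0.108 for Csf1r and 0.0836 to 0.154 for Adgre1), and that of Adgre1 without OVA 72 h replicate 4 (adjusted p = 0.0599), with RLE scaling (0.0538) and without the intermediate libraries (0.079). Without the shallow libraries both ended (0.448 and 0.444), where 0 genes of the whole table passed.

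Ctss (ENSMUSG00000038642, chromosome 3, 95526786 to 95556403) differed by less but more evenly. It stood at 58.4, 74.2, 101.2 and 59.0 CPM in OVA 72 h and at 43.7 to 48.3 CPM in TLR7 72 h, with no overlap, and its log2 fold change was -0.69 (SE 0.17; adjusted p = 0.0233 with edgeR). Without OVA 72 h replicate 3 it was -0.49 (adjusted p = 0.0936), and without TLR7 72 h replicate 1, 2 or 4 it was -0.69 to -0.60 (adjusted p 0.0702 to 0.0911). Leaving out both OVA 24 h replicate 2 and OVA 72 h replicate 3, it was -0.47 (adjusted p = 0.0298) and the only one of these genes past the threshold in this comparison.

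Lilr4b (ENSMUSG00000089672) rose with TLR7 at 72 h. It stood at 34.5, 9.97, 12.7 and 5.98 CPM in OVA and at 69.0, 63.5, 48.7 and 46.0 CPM in TLR7, with no overlap, and its log2 fold change was 1.84 (SE 0.51; adjusted p = 0.0472 with edgeR). It kept its direction without any 1 of the 8 libraries (log2 fold changes 1.61 to 2.66), but it kept its call only without OVA 72 h replicate 1 (adjusted p = 0.003). Without any 1 of the other 7 libraries its adjusted p ran from 0.0558 to 0.139, and the call also ended with RLE scaling (0.0504) and without the intermediate libraries (1.60, adjusted p = 0.0688). The gene belongs to a family with near-identical copies, so its counts are uncertain where reads could be split between them.

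**Figure D5:**
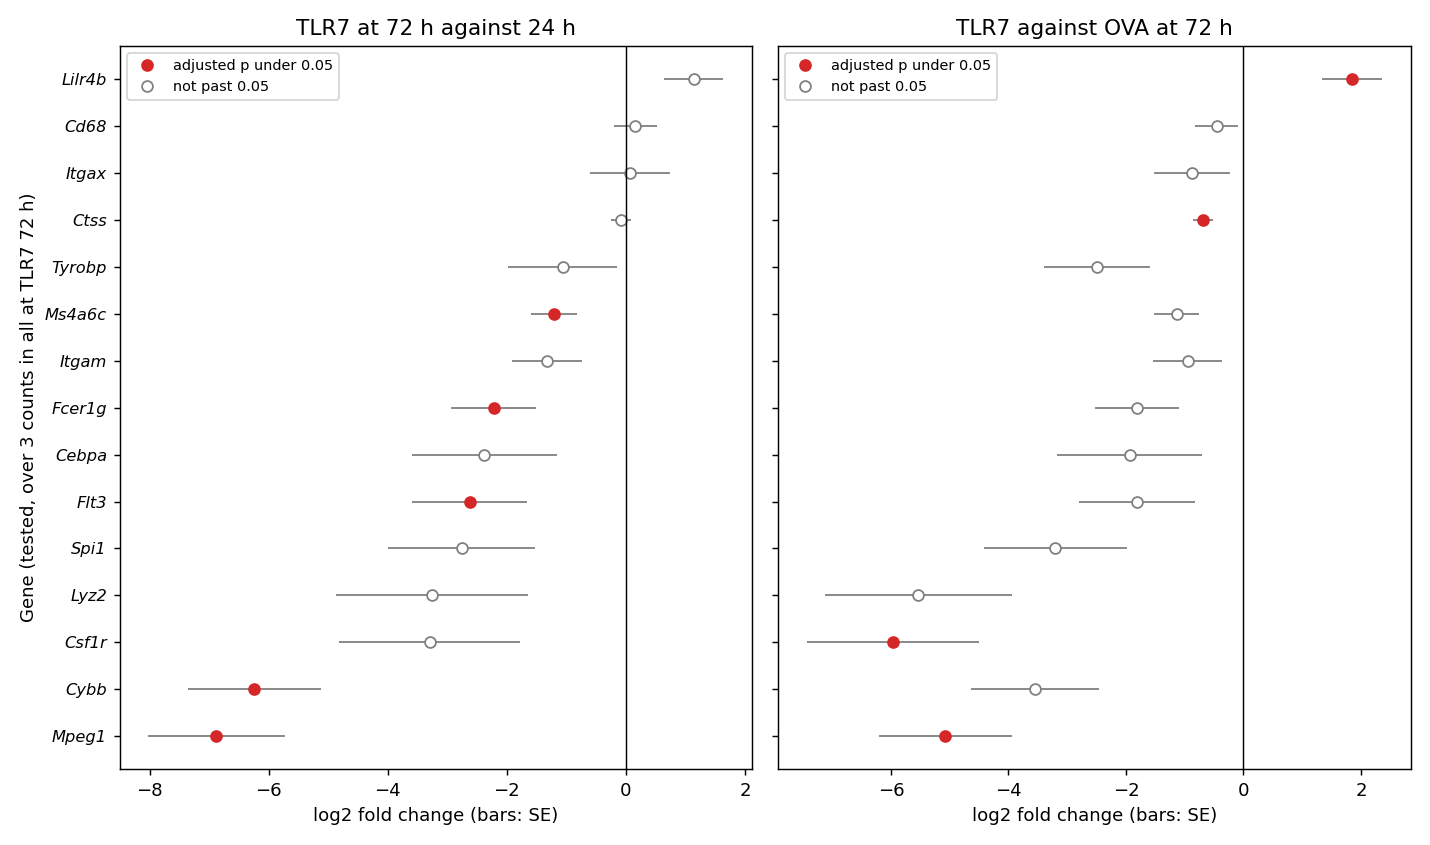
Log2 fold change (points) and SE (bars) of 15 tested genes for TLR7 at 72 h against 24 h and for TLR7 against OVA at 72 h. Red points passed an edgeR adjusted p of 0.05; the 9 tested genes with 3 counts or fewer over the TLR7 72 h group are not drawn. Mpeg1 lies at -6.88 and -5.08, and Lilr4b at 1.14 and 1.84.

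With TLR7 against TLR2 at 72 h, Mpeg1 and Cybb fell, beside 3.94% of all genes tested that fell, and 0 of the 24 genes rose. Of the 699 genes called in the whole table, 574 fell. The log2 fold changes were -5.96 for Mpeg1 (SE 1.13; adjusted p = 0.0154 with edgeR) and -4.91 for Cybb (SE 1.09; adjusted p = 0.0203). The groups overlap for both genes, since TLR2 72 h replicate 2 (0.115 CPM of each) lay among or below the TLR7 libraries while the 3 intermediate TLR2 libraries lay at 13.02 to 18.1 CPM (Mpeg1) and 9.62 to 14.9 CPM (Cybb). Without the intermediate libraries the signs turned, to 0.69 for Mpeg1 (adjusted p = 0.931) and 1.31 for Cybb (adjusted p = 0.846). The calls of both genes also ended without TLR2 72 h replicate 1 or without TLR7 72 h replicate 1, 2 or 4, and that of Cybb without TLR2 72 h replicate 3 or 4 (adjusted p 0.0507 to 0.0963 in all). Adgre1 (4, 2, 32 and 20 counts in TLR2 72 h, 0 in TLR7 72 h) was at least 13.8-fold lower and did not pass the threshold (edgeR adjusted p = 0.0557).

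With TLR2 against OVA at 72 h, 0 of the 24 genes passed the threshold with edgeR, and neither did any of the 14560 genes (0%). At an unadjusted p under 0.05 there were 5 (Csf1r, Tyrobp, Ctss, Cd14 and Lilr4b) among 1693 of all genes. DESeq2 called 1, Ctss (log2 fold change -0.60, adjusted p = 0.0427), among 97 genes in all. Ctss stood at 48.6, 49.8, 46.0 and 46.0 CPM in TLR2 72 h, below all 4 OVA 72 h libraries. Tyrobp, which encodes the adaptor DAP12, stood at 0.858, 0.115, 0.780 and 0.256 CPM in TLR2 72 h and at 0.337, 0.169, 8.33 and 0.837 CPM in OVA 72 h, so that OVA 72 h replicate 3 sets the difference of the means. Without OVA 72 h replicate 4, 2 genes passed (Csf1r, -4.11, adjusted p = 0.0459, and Ctss, -0.65, adjusted p = 0.0329), among 555 genes of the whole table.

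At 24 h no agonist moved any of the genes past the threshold. With TLR2 against OVA it was 0 of 24 with edgeR, beside 0% of all genes; 1 gene (Ctss) had p under 0.05 before adjustment, as did 2211 of all genes, and DESeq2 called 0 of the 24 and 345 in all. With TLR7 against OVA it was 0 of 24, beside 0.22% of all genes; 7 had p under 0.05 before adjustment (Ngp, Ltf, Camp, S100a8, S100a9, Lyz2 and Siglech), as did 1471 of all 14560 genes, and DESeq2 called 0 of the 24 and 243 in all. With TLR7 against TLR2 it was 0 of 24, beside 1.24% of all genes; 1 (Siglech) had p under 0.05 before adjustment, as did 3095 of all genes, and DESeq2 called 0 of the 24 and 1016 in all. Of the 7, all but Siglech are highest in OVA 24 h replicate 2.

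Siglech was low everywhere at 24 h with TLR7, at 0.132, 0, 0.0432 and 0 CPM against 0.669, 0.636, 0.206 and 0.265 CPM with OVA and 0.501, 0.396, 0.407 and 0.0895 CPM with TLR2. The TLR7 and OVA libraries do not overlap, but the TLR7 group held 4 counts in all, and the difference from OVA did not pass the threshold (log2 fold change -3.09, SE 1.10, edgeR adjusted p = 0.275). Marco, a scavenger receptor of macrophages, had 22, 19, 19 and 16 counts in TLR2 24 h (0.7736 to 1.43 CPM) and 4, 17, 1 and 0 counts in OVA 24 h (0 to 0.7725 CPM). The 2 ranges do not overlap, though the nearest libraries (0.7725 and 0.7736 CPM) are almost equal, and Marco did not pass the threshold in any of the 9 comparisons with edgeR and all libraries. Over time it passed without the intermediate libraries with TLR2 (edgeR adjusted p = 0.0217, with 0 counts in the 1 library left at 72 h) and with TLR7 (adjusted p = 0.0226, with 1 count at 72 h), and with TLR2 without TLR2 72 h replicate 3 (adjusted p = 0.0107). DESeq2 called it over time with TLR7 in all libraries (adjusted p = 0.0202). Without OVA 24 h replicate 2 and OVA 72 h replicate 3, 1 gene rose with TLR2 at 24 h, Ms4a6c (log2 fold change 0.98, edgeR adjusted p = 0.0437), among 716 genes in all.

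Itgam, Itgax, Spi1 and Cebpa passed the threshold in 0 of the 9 comparisons with edgeR and all libraries. Itgam (CD11b, an integrin chain of myeloid cells) lay at 0.465 to 4.41 CPM and had counts in all 24 libraries, and Itgax (CD11c, the integrin chain that marks dendritic cells) lay at 0.127 to 2.91 CPM. Both were highest in OVA 72 h replicate 3, and Itgax stood at 0.380 to 0.579 CPM in the 4 TLR7 72 h libraries. Spi1 (PU.1) lay at 0 to 3.05 CPM with 3 libraries at 0, and Cebpa at 0 to 1.00 CPM with 5 at 0. Both were again highest in OVA 72 h replicate 3, and the 4 TLR7 72 h libraries held at most 0.248 CPM of Spi1 and 0.165 CPM of Cebpa. Over time with TLR7, Itgam (log2 fold change -1.73, edgeR adjusted p = 0.0453) and Spi1 (-3.24, adjusted p = 0.0459) passed without the intermediate libraries, and Itgam also without TLR7 24 h replicate 3 (-1.60, adjusted p = 0.0324). Without OVA 24 h replicate 2 and OVA 72 h replicate 3, Itgam, Spi1 and Cebpa passed there (Cebpa at -2.36, edgeR adjusted p = 0.0417), and DESeq2 called Spi1 with all libraries (adjusted p = 0.0387).

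Whether the agonist effect differed between the times was tested as the effect at 72 h minus that at 24 h, with edgeR. For TLR2, 0 of the 24 genes passed the threshold with edgeR, beside 0% of all genes; 2 had p under 0.05 before adjustment (Csf1r and Cd14), as did 919 of all genes, and DESeq2 called 0 of the 24 and 2 in all. For TLR7 it was 0 of 24, beside 0.81% of all genes; 8 had p under 0.05 before adjustment, as did 2323 of all genes, and DESeq2 called 3 (Adgre1, Csf1r and Mpeg1) among 457 in all. For Mpeg1 the TLR7 effect was -0.56 (SE 0.77) at 24 h and -5.08 (SE 1.13) at 72 h, and the difference of -4.51 (SE 1.385) had an edgeR adjusted p of 0.113. Without OVA 72 h replicate 1, 3 genes passed in this test (Adgre1, Mpeg1 and Lilr4b, adjusted p 0.0373 to 0.0403), among 752 genes of the whole table against 118 with all libraries.

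Without OVA 24 h replicate 2 and OVA 72 h replicate 3, a choice made after seeing the data, 14 of the genes fell over time with TLR7, where 7225 genes of the whole table passed, against 6288 in all libraries. With TLR2 7 passed (6 lower, and Cd68 higher) among 6524 genes in all, against 5681. With OVA 0 passed, as did 0 genes of the whole table. Those that fell with TLR7 then included Csf1r (log2 fold change -3.27, adjusted p = 0.00335), Itgam (-1.33, adjusted p = 0.0173), Lyz2 (-3.26, adjusted p = 0.037) and Spi1 (-2.76, adjusted p = 0.02). With all 24 libraries these 4 genes had nearly the same log2 fold changes (-3.30, -1.32, -3.26 and -2.76) and did not pass (edgeR adjusted p 0.0731 to 0.104). The TLR7 libraries are the same in both fits.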

How the data were processed

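The deposited tables hold expected counts per gene that the authors estimated with RSEM after alignment with STAR on GRCm38, with edgeR also named, per the submitters' processing notes; tool versions and the strand setting were not stated in the sources used. Of the nonzero values, 28.7% were not whole. Expected counts were rounded, and genes kept by filterByExpr (minimum count 10, minimum total 15) were fitted with edgeR 4.0.16 (R 4.3.3, limma 3.58.1; TMM, quasi-likelihood test) in 1 model of 24 libraries with a term per group and Benjamini-Hochberg adjustment over 14560 genes. A call is an adjusted p under 0.05. CPM values were computed here from rounded counts with TMM. DESeq2 1.42.0, other scalings, no filter, a replicate block and fits without libraries were alternatives. Positions and exon lengths are from GENCODE M21, promoter windows from RefSeq. Only the main edgeR model was tested on simulated counts. These had less spread than the data, no outlying or intermediate libraries, and changes only in genes with higher counts. How well changes in sparse genes are found was not tested.

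The genes and lists were chosen with earlier results of these data known. Every gene is named, and those past the threshold or with a group mean of at least 1 CPM were to get values by library or group. Replicates of 1 group differed by more than sampling noise, with no identical libraries. Library totals of 10.5 to 27.1 M counts set the precision of low values. Intermediate libraries were defined by the first principal component over all genes.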

Additional observations from a re-analysis of the deposited data

Results flagged for a closer look

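For 24 genes that reached a group mean of 1 CPM or passed a test, the 6 groups of 4 libraries were searched for a library that lies far from the other 3, judged by its gap to the nearest library as a share of the group's range (Dixon's criterion at 95%). Of 144 gene and group pairs, 28 had such a library. Pairs whose highest library lay under 1 CPM are among the 144 but could not be flagged. The usual chance rate of about 1 in 20 holds for independent, normally distributed values, which these low and related counts are not, so the number is a description. C1qb, C1qc, Cd14 and Mpo reached 1 CPM only through OVA 72 h replicate 3, so that library stands apart for them by how they were chosen. Csf1r and Ltf reached a mean of 1 CPM only in OVA 24 h and OVA 72 h, and Camp only in OVA 24 h. Their highest libraries in these groups were OVA 24 h replicate 2 and OVA 72 h replicate 3, so their choice also rests on those libraries. The call of Csf1r ended without OVA 72 h replicate 3 too. In 13 of the 28 pairs the library was OVA 72 h replicate 3, with Csf1r at 17.3 CPM, Tyrobp at 8.33, Ngp at 7.96, Fcer1g at 5.96, C1qb at 4.78, Cd14 at 4.55, Itgam and Mpo at 4.41 each, C1qc at 4.14, Ltf at 4.01, Adgre1 and Spi1 at 3.05 each and Camp at 2.18 CPM. In 8 it was OVA 24 h replicate 2, with S100a9 at 63.8 CPM, Lyz2 at 48.4, S100a8 at 39.9, Ngp at 24.4, Fcer1g at 6.82, Tyrobp at 4.50, Csf1r at 2.45 and Spi1 at 1.545 CPM.

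The other 7 were spread over 5 libraries. Mpeg1 (59.4 CPM) and Ngp (2.99 CPM) stood apart in TLR2 24 h replicate 2, Cd14 (1.16 CPM) in TLR2 24 h replicate 4 and Ngp (2.70 CPM) in TLR2 72 h replicate 1. Lyz2 (4.01 CPM) and Ms4a6c (5.63 CPM) stood apart in TLR7 24 h replicate 2, which is shallow, and Spi1 (1.36 CPM) in TLR7 24 h replicate 1. No library of TLR7 72 h was among the 28. Only Ctss, Cd68, Lilr4b, Ms4a6c and Itgam reached 1 CPM in any library of that group, so no other gene could be flagged there.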

How the results depend on the processing

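Of 17 called pairs of a gene and a comparison, 3 (Mpeg1, Cybb and Adgre1 over time with TLR7) kept their call without any 1 library of the groups compared, and 2 changed sign in any alternative: for TLR7 against TLR2 at 72 h without the intermediate libraries, Cybb went to 1.31 and Mpeg1 to 0.69 on the log2 scale. The cause of the changes below was not tested. For TLR7 against OVA at 72 h, 5 genes were called, against 3 with RLE scaling, 12 with DESeq2, 3 without the intermediate libraries, 0 without the shallow libraries, 1 without OVA 24 h replicate 2 and OVA 72 h replicate 3 (a choice made after seeing the data), and 0 to 13 without 1 library each. Over all genes the counts were 527, then 423, 961, 258, 0 and 258 in the same order, and 92 to 1370. For TLR7 against TLR2 at 72 h it was 2, against 7 with DESeq2, 0 without the shallow and 4 without those 2 OVA libraries, and 0 to 3 without 1 library each. All genes gave 699, then 1510, 0 and 1229 in that order, and 0 to 1667. The fit without the intermediate libraries leaves 1 TLR2 72 h library. Its count is therefore left out here and for TLR2 over time. For OVA over time it was 2, against 1 with no scaling (Ctss, higher, and neither of the 2), 0 without a filter on low counts, 0 without the shallow and 0 without the 2 OVA libraries, and 0 to 3 without 1 library each. The counts over all genes were 2709, then 2070, 1129, 0 and 0, and 0 to 4709. For TLR2 over time it was 2, against 0 without a filter, 1 without the shallow and 7 without the 2 OVA libraries, and 0 to 2 without 1 library each. In the whole table it was 5681, then 4045, 2847 and 6524, and 1371 to 5200. For TLR7 over time it was 6, against 14 with DESeq2, 10 without the intermediate, 0 without the shallow and 14 without the 2 OVA libraries, and 4 to 7 without 1 library each. Here all genes gave 6288, then 6849, 8240, 5 and 7225, and 3926 to 6816. For TLR2 against OVA it was 0 at both times, against 1 at 24 h without the 2 OVA libraries, and at 72 h 1 with DESeq2 and 0 to 2 without 1 library each. Beside these stood 0 of all genes at both times, then 716, 97 and 0 to 555. For the TLR7 effect at 72 h minus 24 h it was 0, against 3 with DESeq2 and 0 to 3 without 1 library each. Among all genes this was 118, then 457 and 0 to 752. For TLR7 against OVA and against TLR2 at 24 h and for the TLR2 effect at 72 h minus 24 h it stayed 0 in every alternative run. Of 36 sums over a group of genes, 21 moved by over 1 SD when the gene with the highest CPM was left out.

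Replicate numbers are shared between the groups, but the labels do not say what they mark. Of 60 pairs of same-numbered libraries, the correlation of their deviations from the group means was over 0.1 in 21 (range -0.616 to 0.525). Of 24 libraries, 10 correlated best with their own number. The values to be met without a pairing were not worked out, so these do not settle whether the numbers mark one. The main model has no pairing, and a fit with a replicate block is given beside it. With the replicate block, 2 genes were called for TLR7 against OVA at 72 h (Ctss and Mpeg1; the calls of Csf1r, Adgre1 and Lilr4b ended at adjusted p = 0.1, 0.0807 and 0.0601) and 0 for OVA over time (Cybb 0.057, Mpeg1 0.0577), and the other counts stayed within 1.5 times.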
